A study of Mus musculus with 12 samples.

Results

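Expression of 10 genes of the chondroitin sulfate proteoglycan matrix was examined in injured spinal cord of ApoE4 mice. The 10 genes are ACAN, BCAN, NCAN, VCAN, CSPG4, CSPG5, PTPRZ1, TNR, TNC and HAPLN1, which were picked by symbol from 13957 symbols in the deposited table. The table lists all 10 genes above the lesion, among 13647 genes, and 8 of them below it, among 12338 genes, where BCAN and CSPG5 have no row. Of the 10 genes, 7 encode proteoglycan core proteins, whereas TNR, TNC and HAPLN1 encode matrix partners that bind them.

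The data come from bulk RNA-seq of 12 spinal cord libraries in 4 groups of 3. All groups were male mice that carried human ApoE4 and received a contusion at thoracic vertebral level 9 at 4 months of age, with tissue taken at 14 days. Mice labelled synj1+/+ and mice labelled synj1+/- each gave a group of segments above and a group below the lesion, where synj1+/- means heterozygous, in the whole animal, for an inactive allele of the lipid phosphatase synaptojanin 1. Each genotype comparison asks how transcripts beside the lesion differ between ApoE4 mice labelled synj1+/- and synj1+/+. Sham-operated animals and mice carrying ApoE3 were not analysed here, so the comparisons say nothing of how the genes respond to injury or to the ApoE variant, and the segments lie next to the lesion rather than being dissected scar.

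For each gene and site the table holds 1 value per genotype, made by the authors from the 3 libraries of a group. The unit is FPKM, fragments scaled to transcript length and library size, to which 1 appears to have been added, since the lowest value is exactly 1. The columns used hold no value of a single library, so no spread, error or test was computed here. The p-values of the authors' own test, which the same table holds, were not used, and every difference below is one between group values with no replicate check. A gene was counted as higher or lower past the threshold when its log2 ratio was at least 0.32 in size, which is a ratio of 5 to 4, and log2 ratios are those of the synj1+/- labelled group over the synj1+/+ labelled group. Where values are given in pairs, the synj1+/+ labelled group comes first. The sites were normalized separately, so levels above and below the lesion are given side by side only. In these values the level of a gene goes with its number of annotated transcript models (Spearman's rho of 0.605 across 13531 genes, a description), so levels were not compared between genes.

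SYNJ1, the targeted gene, went against the genotype labels. Its group value was higher in the synj1+/- labelled group at both sites, at 1905 and 2404 above the lesion and 1847 and 2593 below it. This is the reverse of what the labels name, and every direction given here rests on these labels, so the groups are called by their labels throughout. APOE was 767 and 549 above the lesion and 477 and 564 below it, with opposite signs. The mice carry human ApoE4 and the reads were aligned to the mouse genome, so this row may not measure the human transcript in full.

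Chondroitin sulfate proteoglycans are core proteins that carry long sulfated sugar chains. In the central nervous system the lecticans bind hyaluronan through link proteins and are joined to each other by tenascins, which builds the perineuronal nets around fast-firing and motor neurons. After spinal cord injury reactive astrocytes, oligodendrocyte precursors, pericytes and fibroblasts deposit these proteins around the lesion, where the sugar chains hold back growing axons through receptors such as PTPRS, and where enzymes that cleave the chains have been used to promote sprouting.

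The 3 members that passed the threshold at a site were TNR, TNC and HAPLN1, and the RefSeq sequence just upstream of each is shown because their group values carry the differences described here. Windows of 250 bases before and 50 bases after an annotated start were available for 9 of the 10 genes, all except CSPG5, and only bases before the first annotated base of the gene are printed, 5′ to 3′ on the gene's strand. Capitals mark a match to the GC box gggcgg or the TATA box tataaa.
TNC, chr4:64047016-64047265, minus strand, GRCm38.p6: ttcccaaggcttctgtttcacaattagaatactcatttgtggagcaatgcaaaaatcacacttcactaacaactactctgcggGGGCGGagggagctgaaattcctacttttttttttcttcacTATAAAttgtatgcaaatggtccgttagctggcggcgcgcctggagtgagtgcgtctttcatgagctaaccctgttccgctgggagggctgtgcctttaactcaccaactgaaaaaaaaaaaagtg
TNR, chr1:159523519-159523728, plus strand, GRCm38.p6: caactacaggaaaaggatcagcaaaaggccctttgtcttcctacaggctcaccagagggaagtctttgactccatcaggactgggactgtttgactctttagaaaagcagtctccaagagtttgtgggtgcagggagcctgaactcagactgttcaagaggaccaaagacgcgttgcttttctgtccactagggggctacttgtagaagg
HAPLN1, chr13:89540386-89540528, plus strand, GRCm38.p6: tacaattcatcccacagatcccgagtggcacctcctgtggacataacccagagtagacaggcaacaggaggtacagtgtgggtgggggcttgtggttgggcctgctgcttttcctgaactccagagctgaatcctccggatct
Of the 5 motifs searched on both strands, the TNC window holds 1 GC box, at position -167 from the listed start, and 1 TATA box, at position -126. Among 32851 windows of 300 bases over all genes, 35.7% hold the GC box and 13.6% the TATA box. The windows of TNR and HAPLN1 hold neither of these, nor the CCAAT box ccaat, the AP-1 site tgactca or the E-box cacgtg, which occur in 37.4%, 5.20% and 7.15% of all windows. These matches describe letters only and say nothing of which factors bind there.

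Above the lesion, 2 of the 10 genes were lower in the synj1+/- labelled group past the threshold, TNR and TNC, and 0 were higher. Over all genes listed above the lesion, 7.45% were lower and 4.18% higher past it. Below the lesion, 1 of 8 genes was lower, TNC, and 1 was higher, HAPLN1, where 11.5% of all genes were lower and 8.06% higher. Counts of 1 of 8 lie near these shares and 2 of 10 is a small count, so they are no result about the genes as a set. None of the 10 genes differed by 1.5-fold at either site. Over all genes the shares past 1.5-fold were 0.791% higher and 1.94% lower above the lesion, against 1.16% higher and 4.38% lower below it. Counted by sign alone, 7 of 10 genes lay below 0 above the lesion, with a median log2 ratio of -0.13, and 6 of 8 lay below 0 below the lesion, with a median of -0.12. Over all genes 51.0% lay below 0 above the lesion and 47.2% below it, with medians of -0.00 and 0.01.

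**Figure D1:**
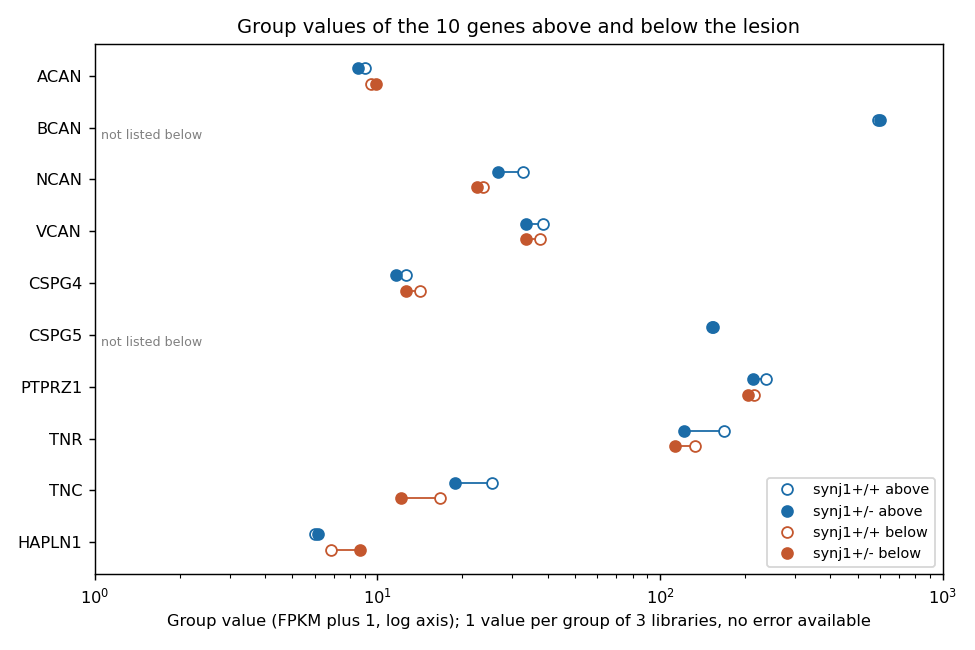
Group values (FPKM plus 1, log axis) of the 10 genes, with open circles for the synj1+/+ labelled group and filled circles for the synj1+/- labelled group, in blue above and orange below the lesion. Each circle is 1 value per group of 3 libraries with no error available, and the widest gaps are those of TNR above the lesion (168 against 122) and TNC at both sites.

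The lecticans are the hyaluronan-binding core of this matrix, and none of the 4 passed the threshold. NCAN encodes neurocan, a lectican made by astrocytes and neurons. Its group value above the lesion was 32.7 in the synj1+/+ labelled group and 26.8 in the synj1+/- labelled group, a log2 ratio of -0.29 and 1.22-fold lower, the widest gap among the lecticans. Below the lesion it was 23.6 and 22.6, a log2 ratio of -0.06.

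VCAN encodes versican, made by oligodendrocyte-lineage cells and fibroblasts. Its group value was 38.5 in the synj1+/+ labelled group and 33.5 in the synj1+/- labelled group above the lesion, and 37.6 and 33.5 below it, with log2 ratios of -0.20 and -0.16. ACAN encodes aggrecan, the defining proteoglycan of perineuronal nets. Its values were 9.04 and 8.55 above the lesion and 9.48 and 9.90 below it, with log2 ratios of -0.08 and 0.06. ACAN thus had opposite signs at the 2 sites, each within 1.06-fold. BCAN encodes brevican, a lectican of the brain and spinal cord made largely by astrocytes and oligodendrocyte-lineage cells. It stood at 590 and 598 above the lesion, in the same order, a log2 ratio of 0.02.

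The membrane-anchored proteoglycans also lay within the threshold at both sites. CSPG4 encodes NG2, the surface proteoglycan of oligodendrocyte precursors and pericytes. Its group value was 12.6 in the synj1+/+ labelled group and 11.6 in the synj1+/- labelled group above the lesion, and 14.1 and 12.6 below it, with log2 ratios of -0.12 and -0.16. PTPRZ1 encodes a receptor-type tyrosine phosphatase of glia whose secreted form is phosphacan. It was 237 and 213 above the lesion and 216 and 205 below it, with log2 ratios of -0.15 and -0.07. CSPG5 encodes neuroglycan C, a neuronal transmembrane proteoglycan, and was 153 and 154 above the lesion, a log2 ratio of 0.01. CSPG4 and PTPRZ1 thus lay on the lower side at both sites, by at most 1.12-fold.

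The tenascins and the link protein held every value past the threshold. TNR encodes tenascin-R, which cross-links lecticans in the nets and is made by oligodendrocytes and some neurons, and lies at chr1:159523729-159931729. Above the lesion its group value was 168 in the synj1+/+ labelled group and 122 in the synj1+/- labelled group, 1.38-fold lower (log2 ratio of -0.47). Of all genes above the lesion, 3.28% had a lower ratio. Among the 1365 genes in the same decile by level, 3.30% were lower past the threshold. Below the lesion TNR was 133 and 113, a log2 ratio of -0.23 and short of the threshold.

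TNC encodes tenascin-C, a matrix glycoprotein that reactive astrocytes and fibroblasts make after injury, and lies at chr4:63959785-64047015. It was the only member past the threshold at both sites, but with 10 added to each value before the log its log2 ratios were -0.29 and -0.27, short of the threshold at both. Above the lesion its group value was 25.4 in the synj1+/+ labelled group and 18.9 in the synj1+/- labelled group, a log2 ratio of -0.43, and 4.09% of all genes had a lower ratio. Below the lesion it was 16.7 and 12.1, a log2 ratio of -0.47, and 6.47% had a lower ratio. TNC was thus lower in the synj1+/- labelled group by a like amount at both sites. Genes of its level passed the threshold more often than those of the level of TNR, with 8.87% lower above and 15.0% lower below in its decile.

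HAPLN1 encodes the link protein that locks lecticans onto hyaluronan and is needed to form nets, and lies at chr13:89540529-89611832, with VCAN beside it at chr13:89655309-89743027. Below the lesion its group value was 6.84 in the synj1+/+ labelled group and 8.69 in the synj1+/- labelled group, 1.27-fold higher (log2 ratio of 0.34), and 6.78% of all genes had a higher ratio. In its decile by level 12.2% of genes were higher past the threshold. Above the lesion it was 6.03 and 6.18, a log2 ratio of 0.04. HAPLN1 was just past the threshold, and it was no longer past it when values were divided by the sum over all genes of the site or when 10 was added to each value before the log.

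**Figure D2:**
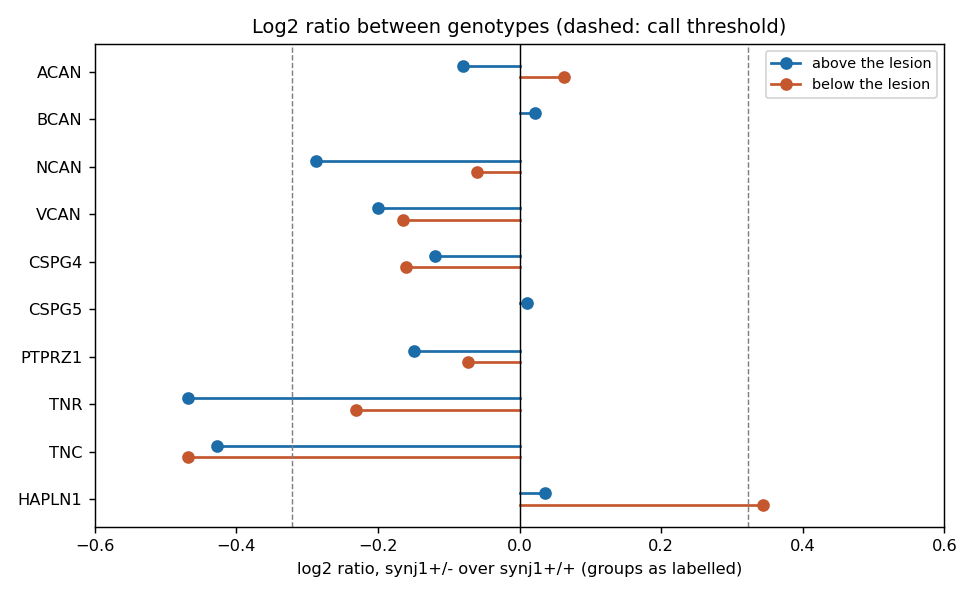
Log2 ratio of the synj1+/- labelled group over the synj1+/+ labelled group for each of the 10 genes, in blue above and orange below the lesion, with dashed lines at the threshold of 0.32. TNC lies left of the line at both sites (-0.43 and -0.47), TNR above the lesion only (-0.47 against -0.23), and HAPLN1 right of it below the lesion (0.34).

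The log2 ratio below the lesion was set against that above for the 8 genes listed at both sites. It was higher below for 6 of 8 genes, or 75%, where 53.9% of the 12025 symbols listed at both sites were. The difference was largest for HAPLN1 at 0.31, followed by TNR at 0.24, NCAN at 0.23, ACAN at 0.14, PTPRZ1 at 0.08 and VCAN at 0.03. TNC and CSPG4 each stood at -0.04. The median over the 8 genes was 0.11 against 0.02 over all symbols. The difference between the sites was not tested here.

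**Figure D3:**
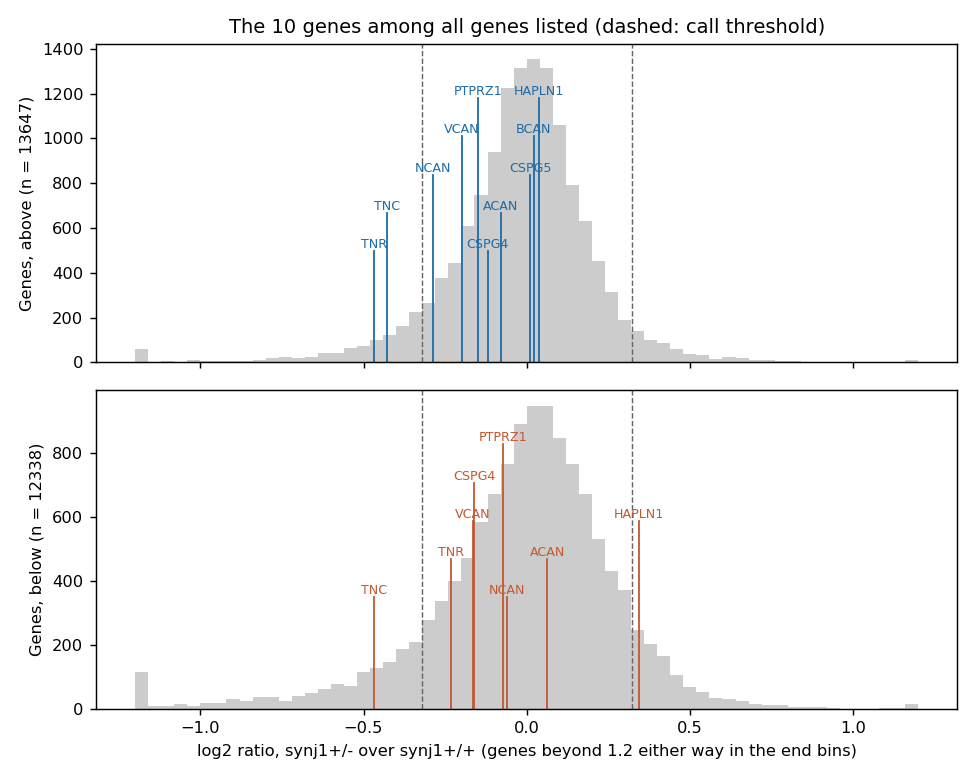
Number of genes by log2 ratio of the synj1+/- labelled group over the synj1+/+ labelled group, for all 13647 genes above the lesion (top) and all 12338 below it (bottom), with the 10 genes marked by colored lines whose height has no meaning and dashed lines at the threshold. Most of the 10 genes lie within the bulk of all genes, with TNR and TNC left of the line above the lesion, and TNC left and HAPLN1 right of it below.

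In bulk tissue, fewer cells of a type and less RNA per cell cannot be told apart, so markers of the cells that make this matrix are given beside the 10 genes. Astrocyte markers lay mostly below 0, with few past the threshold. Above the lesion 8 of 10 lay below 0, 1 of them past the threshold, with a median log2 ratio of -0.21, and below it 8 of 9 did, 2 of them past the threshold, with a median of -0.17. Over all genes 51.0% and 47.2% lay below 0, and 7.45% and 11.5% were lower past the threshold, so the astrocyte counts past it lie near those of all genes. GFAP, the filament protein of reactive astrocytes, was 12975 in the synj1+/+ labelled group and 10584 in the synj1+/- labelled group above the lesion, with 11117 and 8485 below it. The water channel AQP4 had log2 ratios of -0.29 and -0.40, and the enzyme ALDH1L1 of -0.26 and -0.12. The summed astrocyte value was 0.829 times that of the synj1+/+ labelled group above and 0.790 times below. BCAN, made largely by astrocytes and oligodendrocyte-lineage cells, had a log2 ratio of 0.02 above the lesion and no row below it. The part of the astrocyte markers in the values of TNC, NCAN, PTPRZ1 and BCAN was not tested.

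Oligodendrocyte precursor markers lay closer to 0. Their median log2 ratio was -0.13 over 7 genes above the lesion, 1 of them lower past the threshold, and -0.12 over 6 genes below it, with 0 past that fold. The shares of all genes lower past the threshold were 7.45% and 11.5%. PDGFRA, the growth factor receptor of precursors, had log2 ratios of -0.13 and -0.31, OLIG1 of -0.12 and 0.09, and OLIG2 of -0.09 and 0.18. CSPG4, at -0.12 and -0.16, lay within the range of these markers. That range ran from -0.44 to 0.00 above the lesion and from -0.31 to 0.18 below it, so it takes in no change. The part of precursors in the value of CSPG4 was not tested. Of 8 oligodendrocyte markers 4 were listed, with MBP among those with no row, and none passed the threshold. Their medians were -0.08 and 0.09. MOG was 283 and 249 above the lesion and 206 and 231 below it, in the order synj1+/+ and synj1+/-.

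Markers of fibroblasts, which make tenascin-C and versican, and of macrophages were lower by more. Of 8 fibroblast markers 7 were lower past the threshold above the lesion, with a median of -0.52, and all 7 listed below it were, with a median of -2.81. The shares of all genes lower past the threshold were 7.45% above the lesion and 11.5% below it. COL1A1, a chain of fibrillar collagen, was 47.2 in the synj1+/+ labelled group and 6.29 in the synj1+/- labelled group below the lesion, with COL1A2 at 75.7 and 11.6 and COL3A1 at 69.9 and 7.91. Above the lesion these collagen genes were low, with COL1A1 at 4.20 and 2.88, COL1A2 at 9.32 and 7.26 and COL3A1 at 5.255 and 1.73. The summed fibroblast value below the lesion was 466 and 81.9. TNC below the lesion was 1.38-fold lower and VCAN 1.12-fold lower in the same groups. Of the microglia and macrophage markers, 6 of 11 were lower past the threshold above the lesion and 6 of 8 below it, with medians of -0.41 and -0.66. ITGAM was 23.3 and 17.4 above the lesion, with no row below it. AIF1 was 18.2 and 18.7 above and 27.0 and 14.2 below, and CSF1R had log2 ratios of -0.41 and -0.27. The part of these shifts in the values of TNC and VCAN was not tested.

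Neuron markers, like HAPLN1, were higher below the lesion. All 7 neuron markers listed there were higher in the synj1+/- labelled group, 2 of them past the threshold, with a median of 0.19, and above the lesion the median was 0.03 over 8. Among all genes, 52.8% were higher below the lesion, 8.06% of all genes past the threshold, and 51.0% lay below 0 above it. SNAP25, of the synaptic release machinery, was 5272 and 6929 below the lesion, and SYT1 was 332 and 481. RBFOX3, a nuclear marker of neurons, was 1486 and 1781 above the lesion and had no row below it. All 7 markers of neurons that carry nets were higher below the lesion as well, 3 of them past the threshold, with a median of 0.25, where above the lesion 5 of 7 lay below 0 with a median of -0.11. PVALB, the calcium-binding protein of fast-firing neurons, was 39.1 and 43.2 above and 39.4 and 55.5 below. The potassium channel KCNC1 had log2 ratios of 0.05 and 0.40. The summed value of the net-bearing markers below the lesion was 1.35 times that of the synj1+/+ labelled group, beside 1.27 for HAPLN1 and 1.04 for ACAN. The part of these markers in the value of HAPLN1 was not tested.

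Other genes of the same matrix and of its sugar chains were counted in fixed lists. Of 13 other link proteins and hyaluronan genes, 8 were listed at each site, with 1 higher and 3 lower past the threshold at each, and medians of -0.12 and -0.19. Among all genes, 4.18% were higher and 7.45% lower past the threshold above the lesion, and 8.06% and 11.5% below it. STAB1, a scavenger receptor on macrophages and sinusoidal endothelium, was 12.8 and 8.27 above the lesion and 21.2 and 9.01 below it. ITIH5, a hyaluronan-binding inhibitor heavy chain, was 37.5 and 24.3 below. The next genes were named after their values were seen. HAPLN4, a link protein of nets, was the 1 gene of this list higher past the threshold below the lesion, at 57.5 and 73.6, a log2 ratio of 0.36 beside 0.34 for HAPLN1. Above the lesion HAPLN4 had a log2 ratio of -0.02. HAPLN2, another link protein of this list, lay below 0 at both sites, with log2 ratios of -0.10 above and -0.21 below. CD44, the main cell surface receptor for hyaluronan, was 177 and 129 below the lesion. HAS3, a hyaluronan synthase, was 28.9 and 21.1 above it.

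The enzymes that build the chains differed little. All 13 enzymes of the linkage region and chain synthesis were listed above the lesion and 11 below it, and 0 passed the threshold at either site, with medians of -0.04 and 0.08 and log2 ratios from -0.19 to 0.22 over both sites. Among the sulfotransferases, epimerases and sulfate donors, 1 of 13 was lower past the threshold above the lesion and 3 of 10 below it, with 0 higher, beside 7.45% and 11.5% lower over all genes. PAPSS2, which makes the sulfate donor, was 34.5 and 25.2 above the lesion and 42.3 and 26.2 below it. PAPSS1, named after its values were seen, makes the same donor. It was 242 and 240 above the lesion and had no row below it. DSE, the epimerase that turns chondroitin into dermatan sulfate, was 16.2 and 9.15 below. Beside PAPSS2 and DSE, the third gene lower past the threshold below the lesion was CHST14, at 5.69 and 3.84. It is a dermatan sulfate sulfotransferase and was named after its values were seen. The lower CHST14 value is under the 5 asked of genes named by rule. DSEL, another epimerase of this list named after its values were seen, had log2 ratios of -0.07 above the lesion and -0.09 below it. DSE and CHST14 both act on dermatan sulfate, the chain type of fibroblast proteoglycans such as decorin. The part of fibroblasts in the values of DSE and CHST14 was not tested.

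The breakdown enzymes had the lowest medians of the 5 lists. Of the enzymes that degrade chondroitin sulfate and hyaluronan, 5 of 10 were lower past the threshold above the lesion and 6 of 11 below it, and 0 were higher at either site, beside 7.45% and 11.5% lower over all genes. Their medians were -0.24 and -0.40. CEMIP, a hyaluronan-depolymerizing protein, was 11.5 and 6.98 below the lesion. Others past the threshold, named after their values were seen, included GUSB, HEXA and HYAL2 at both sites, GALNS above and HYAL1 below. HEXA, a lysosomal hexosaminidase subunit, was 114 and 86.1 above the lesion and 171 and 117 below it. GUSB, lysosomal beta-glucuronidase, was 173 and 138 above and 190.0 and 133 below. Most of these are lysosomal enzymes that microglia and macrophages hold in quantity, and macrophage markers were lower in the same groups, with medians of -0.41 and -0.66, whose part was not tested.

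Receptors of the chains and the signaling proteins downstream of them stayed within the threshold above the lesion in all 14 genes listed, with a median of -0.04. PTPRS, named here after its values were seen, was 1864 and 1883 above the lesion and had no row below it. Below the lesion 3 of the 11 genes listed were lower and 0 higher past the threshold, with a median of -0.06. The shares over all genes were 11.5% lower and 8.06% higher. The 3 genes, named after their values were seen, were the integrin subunit ITGB1 at 50.9 and 34.9, the growth factor receptor EGFR at 5.33 and 3.75, and the kinase ROCK1 at 27.4 and 21.6.

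**Figure D4:**
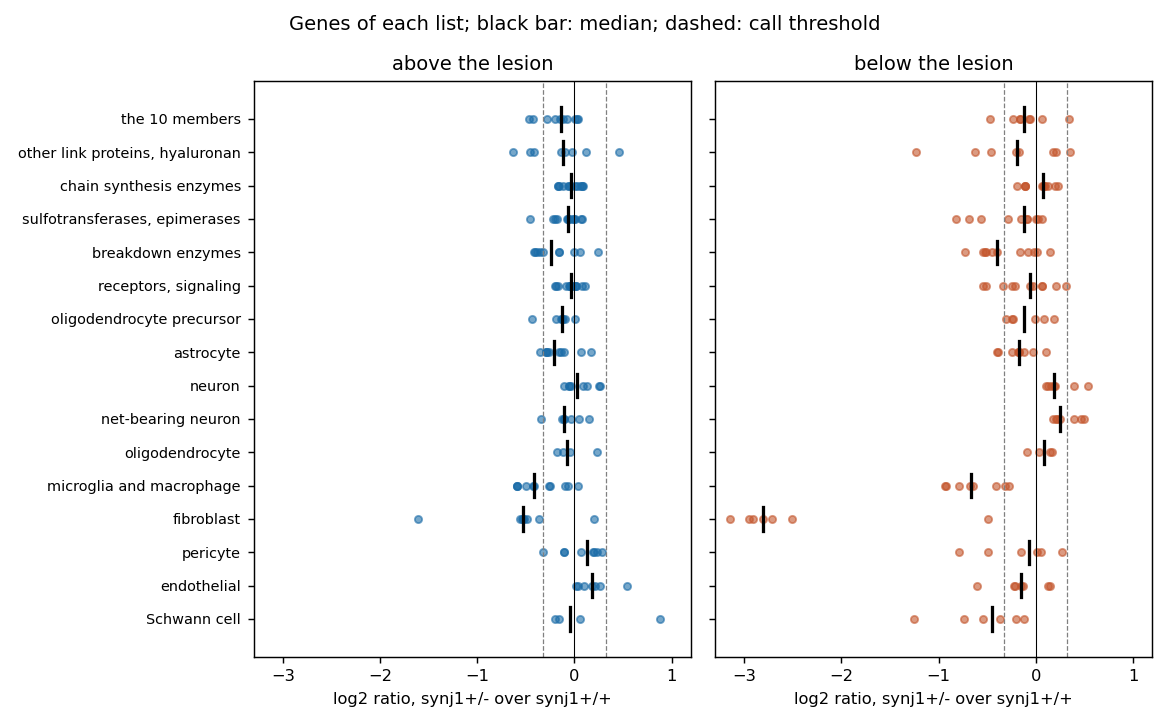
Log2 ratio of the synj1+/- labelled group over the synj1+/+ labelled group for the genes of each list (points) with the list's median (black bar), above the lesion (left) and below it (right), with dashed lines at the threshold of 0.32 and without the red blood cell list. The medians of the 10 genes (-0.13 and -0.12) lie among those of most lists, and fibroblast markers below the lesion lie farthest from 0 (median -2.81).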

How the data were processed

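RNA of cord segments beside the lesion was extracted with TRIzol, and libraries were prepared with the TruSeq RNA kit, random primed. Per the authors' methods, the reads of each site were randomly reduced to the number in the smallest library of that site before alignment, and expression was summarized with upper quartile normalization. The submitters' processing notes name STAR 2.5.4b, Cuffdiff 1.3.0 and the mouse build GRCm38.p6. The annotation used is not given in the sources used here.

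The authors deposited 1 table of 25985 gene tests with, per gene and site, a group value in FPKM for each genotype, read here as FPKM plus 1 because the lowest value is 1, which pulls the ratio of a low gene toward 1. The table also holds the authors' own fold changes, p-values and q-values, which were not used, and a shorter list cut by p-value was not used either. The table has 0 columns of single libraries, so it gives neither the depth of a library nor a spread between the 3 libraries of a group, and no test was made.

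Group values were taken by symbol, and log2 ratios, counts past log2 ratios of 0.32 and past 1.5-fold, medians and sums were computed with pandas 2.3.3, numpy 2.4.6 and scipy 1.17.1 under Python 3.11.15 and drawn with matplotlib 3.10.9. The calculations were tested on simulated data. Gene positions and upstream windows are from RefSeq on GRCm38.p6. The 10 genes, the 5 gene lists and the 11 marker lists were chosen with earlier results of these data known. The genes named are the 10 genes, SYNJ1 and APOE, up to 4 genes per list and site past 1.5-fold with both values over 5, and the first 3 genes listed of each marker list. Others are said to be named after their values were seen, and some genes that meet the rule are not reported here. Alternatives were a fold of 1.1 or 1.5, values less 1, an offset of 10 before the log, scaling to the median ratio or to the sum of values, leaving out genes under the lower quartile, genes listed at both sites, and means in place of medians.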

Additional observations from a re-analysis of the deposited data

How the results depend on the processing

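Every one of the 10 genes kept the sign of its log2 ratio in all alternatives that gave it a value. Only scaling to the median ratio or to the sum of values could change a sign. The other alternatives keep the order of a gene's group values by construction, so the kept signs say little. The medians over the 10 genes at each site and of the difference between sites moved by less than 0.1. Counts past a fold moved. Members lower above the lesion numbered 5 at 1.1-fold, 0 at 1.5-fold and 1 with an offset of 10, and members lower below it 4, 0 and 0. The 1 member higher below the lesion, HAPLN1, was lost (0) at 1.5-fold, with low values left out, with an offset of 10 and with scaling to the sum of values. With an offset of 10 the log2 ratio of TNC became -0.29 above and -0.27 below, and that of HAPLN1 below 0.15. Over all genes, those higher above numbered 2601 at 1.1-fold, 108 at 1.5-fold, 291 with low values left out and 177 with an offset of 10, those higher below 3391, 143, 646 and 382, those lower above 3136, 265, 585 and 386, and those lower below 3218, 541, 855 and 667. An offset shrinks the ratios of low genes by construction, and leaving out low values enters fewer genes. No paired analysis was possible because the table holds 1 value per group, and leaving out each replicate could not be run for the same reason. Every value here is limited by the lack of library values in the columns used, and no difference was set against replicate error, since the authors' p-values were not used.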

Other observations

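Of the cell types not set beside a result above, pericyte markers had medians of 0.13 over 8 genes above the lesion, 1 of them lower past the threshold, and -0.07 over 6 genes below it, 2 of them lower. Past the threshold, 7.45% of all genes were lower and 4.18% higher above the lesion, and 11.5% and 8.06% below it. RGS5 was 57.7 in the synj1+/+ labelled group and 70.1 in the synj1+/- labelled group above the lesion, and 80.4 and 72.1 below it. KCNJ8 had log2 ratios of 0.06 and 0.01, and ABCC9 of 0.23 and 0.27. CSPG4, which pericytes also carry, had log2 ratios of -0.12 and -0.16. Endothelial markers were all higher above the lesion, 7 of 7, with 1 past the threshold and a median of 0.18, whereas below it 2 of 7 were higher, 1 was lower past that fold, and the median was -0.15. Counted by sign, 49.0% of all genes were higher above the lesion and 52.8% below it. PECAM1 had log2 ratios of 0.02 and -0.13, CLDN5 of 0.04 and -0.15, and CDH5 of 0.10 and -0.61.

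Schwann cell markers had a median of -0.05 over 4 genes above the lesion, 1 of them higher past the threshold, and -0.45 over 6 genes below it, 4 of them lower. Red blood cell genes were higher in the synj1+/- labelled group at both sites, with 5 of 5 past the threshold and a median of 2.17 above the lesion, and 3 of 5 and a median of 0.37 below it. Past the threshold, 4.18% of all genes were higher and 7.45% lower above the lesion, and 8.06% and 11.5% below it. HBA-A1, a hemoglobin alpha chain, was 104 and 469 above the lesion and 256 and 330.2 below it. Near-identical hemoglobin copies share reads, so the split between them is uncertain. The part of blood in the values of the 10 genes was not tested.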
